A study of Mus musculus with 6 samples.

Results

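Angpt1, Angpt2, Angpt4, Tek, Tie1, Ptprb and Svep1, the genes of the angiopoietin and Tie receptor axis, were described in the fetal mouse heart ventricle. They were taken by symbol from the 25006 genes listed for every library, so the set holds 7 genes, chosen by name and not by their values. In this axis, angiopoietin 1 made by perivascular and stromal cells binds the receptor tyrosine kinase TIE2, the product of Tek, on endothelial cells and stabilises vessels, while angiopoietin 2 made by endothelial cells acts on the same receptor as a context-dependent antagonist or weak agonist. TIE1 has no classical ligand of its own and works as a co-receptor of TIE2, VE-PTP (Ptprb) removes phosphate from TIE2 and partners with VE-cadherin, and the matrix protein SVEP1 (polydom) binds a Tie receptor and is needed for lymphatic vessel remodelling. In the developing heart the axis is known for its part in trabecula formation and in the growth of coronary and lymphatic vessels.

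RNA sequencing counts covered 6 libraries of whole ventricle at embryonic day 17.5 on an NMRI background, 3 control and 3 labelled as conditional nulls; the series title names signals from cardiac lymphatics as its subject. Controls carry a wild-type genotype label with no Cre named. Null-labelled embryos carry floxed Prox1 alleles (Prox1f/f) and VecadCreERT2, a tamoxifen-dependent Cre under the VE-cadherin promoter, which is active in endothelium generally and not in lymphatic endothelium alone. The labels' breeding scheme gives both parents floxed Prox1 (Prox1 f/f females with VecadCreERT2; Prox1f/f males), so the wild-type label and the breeding differ, and the controls may also carry floxed alleles. Tamoxifen (5 mg for each 40 g of weight) was injected into the dams at E13.5 and E14.5, so by the labels both groups were exposed to it. Since Cre is named in the null-labelled group only, presence of Cre and loss of Prox1 cannot be told apart. Nothing in the labels says that libraries came from separate embryos, so p-values reflect only how these samples vary, which may be technical variation.

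Library totals ranged from 35195544 to 44330594 counts, which puts 3 counts at 0.0677 to 0.0852 CPM (counts after scaling by library size). No library pair of a group agreed within sampling noise. Prox1, the targeted gene, did not fall in whole ventricle: it stood at 147 ± 3.15 CPM (SD, n = 3) in control libraries and 164 ± 3.91 CPM in null-labelled libraries, with a log2 fold change of 0.15 ± 0.03 (SE) and an adjusted p of 0.0331 by edgeR's quasi-likelihood test with Benjamini-Hochberg adjustment, the test behind every adjusted p of a gene below. The Prox1 call ended without control library 1 (adjusted p = 0.0646) or 2 (0.110), without null-labelled library 1 (0.0981), 2 (0.0835) or 3 (0.130), and without null-labelled libraries 1 and 3 (0.557), with the log2 fold change above 0 each time. Prox1 thus gave no lower level in the null-labelled libraries as a check of their label, and the group is called null-labelled throughout. Cre is under the VE-cadherin promoter, and whole ventricle holds many cell types. The Prox1 level of whole ventricle therefore could not show whether Prox1 was lost in endothelium. Esr1, the oestrogen receptor gene, whose ligand-binding part is carried by CreERT2, had 9 to 19 counts per control library and 244 to 298 per null-labelled library (log2 fold change 4.26 ± 0.21, adjusted p = 2.57e-05). Null-labelled libraries 1 and 3 each held both Y-linked and Xist counts: Y-linked genes summed to 9218 and 9952 counts there, and Xist stood at 1798 and 5738. Calls are therefore also given without these 2 libraries. Control libraries 1 and 2 held 11143 and 8735 Y-linked counts, with Xist at 28 and 29. Control library 3 and null-labelled library 2 held 175 and 190 Y-linked counts, with Xist at 49485 and 50586. By these counts, leaving out null-labelled libraries 1 and 3 leaves the groups unbalanced in sex.

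Markers of other cell types are given against the 5.41% of all genes tested that were called and the 20.5% with an unadjusted p under 0.05. Of 10 macrophage genes 5 rose, such as C1qc (log2 fold change 0.53 ± 0.10, adjusted p = 0.0193). Of 8 epicardial and mesothelial genes 2 fell, Krt19 and Upk1b, a count that was 1 by limma-voom, 1 without control library 3, and 0 without control library 1, null-labelled library 2 or null-labelled library 3. Of 12 cardiomyocyte genes 1 fell, Actc1, and the count was 2 without control library 1, 0 without control library 2 or any 1 null-labelled library, 3 by DESeq2 and 0 by limma-voom. Among 6 atrial genes Stard10 rose, while Nppa, the atrial natriuretic peptide, was not called at 704 ± 44.2 CPM in control and 277 ± 102 CPM in null-labelled libraries, which did not overlap (adjusted p = 0.107). The summed atrial level was 1153 to 1506 CPM in control and 630.2 to 1140.3 CPM in null-labelled libraries, and the count of calls was 2 by DESeq2 and by limma-voom and 0 without control library 1, control library 3, null-labelled library 2 or null-labelled library 3. Of 11 tested lymphatic genes Prox1 rose and Reln (log2 fold change -0.72 ± 0.07, adjusted p = 0.000654), Sox18 and Mmrn1 (-2.38 ± 0.36, adjusted p = 0.0211) fell. These 4 calls became 2 without control library 2, null-labelled library 2 or null-labelled library 3. Ccl21a was at 0 in every library. None of 8 endocardial, 7 tested erythroid and 4 tested liver genes was called by edgeR, with 4, 2 and 1 of them under 0.05 before adjustment; DESeq2 called 0, 1 and 0 of these genes and limma-voom called 0 in each list. All 7 tested erythroid genes were below 0, with a median log2 fold change of -0.92 and a summed level of 1746 to 5075 CPM in control and 1207 to 1968 CPM in null-labelled libraries. With null-labelled libraries 1 and 3 left out together, the epicardial and cardiomyocyte counts were 0 and the lymphatic and atrial counts 1.

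Within the axis, the receptors and the phosphatase were lower and Angpt1 and Svep1 were higher in null-labelled libraries. Tie1, Tek and Ptprb fell by 1.17-fold, 1.15-fold and 1.38-fold, Angpt1 rose 1.44-fold and Svep1 rose 1.41-fold. Angpt2 was not called, and Angpt4 was too low to test. In all, 6 of the 7 genes passed the filter on low counts and 5 were called changed, 2 higher and 3 lower, where 5.41% of the 14815 genes tested were called (2.43% higher and 2.98% lower). The same 5 genes showed no overlap between the groups, as did 26.6% of all genes tested (12.7% with null-labelled libraries higher and 13.9% lower). The median size of the log2 fold change was 0.35 over the 6 genes and 0.09 over all genes tested. All 5 calls held under each of 3 other library scalings, under 2 other filters on low counts, by DESeq2 (7.39% of genes called) and by limma-voom (4.5%). They did not all hold with fewer libraries. Svep1 was lost without control library 3 (6.27% of genes called) or null-labelled library 1 (2.59%). Angpt1 and Ptprb alone were called without null-labelled library 2 (1.72%), Angpt1 alone without null-labelled library 3 (1.86%), and Ptprb alone without null-labelled libraries 1 and 3 together (0.342%).

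**Figure D1:**
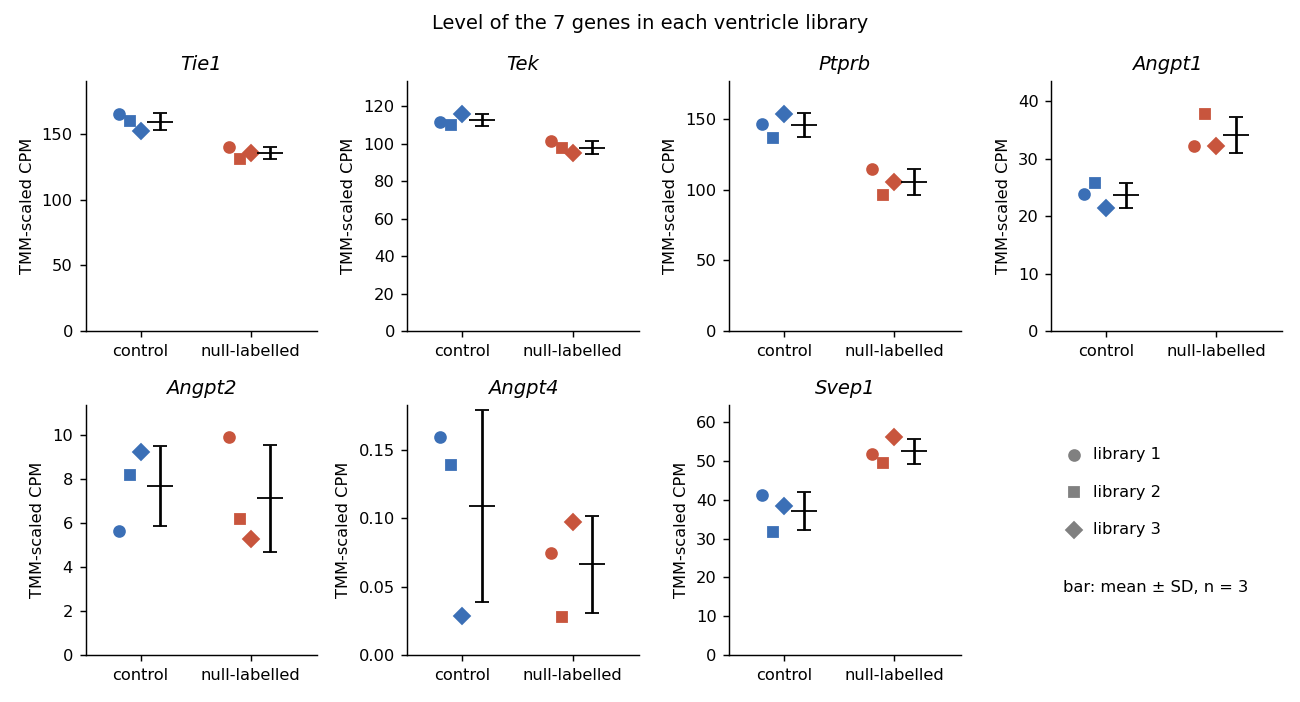
Level of each of the 7 genes in TMM-scaled CPM (linear axes from 0) in the 3 control and 3 null-labelled libraries; symbols mark library numbers and bars show mean ± SD, n = 3. Tie1, Tek and Ptprb are lower and Angpt1 and Svep1 higher in all 3 null-labelled libraries than in any control library, whereas Angpt2 and Angpt4 overlap.

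Tie1 (ENSMUSG00000033191, GRCm38 chr4:118471191-118490061, minus strand, protein-coding) encodes the orphan co-receptor. Its level was 165, 159 and 152.4 CPM in control libraries 1 to 3 and 139.7, 131 and 136 CPM in null-labelled libraries 1 to 3. Every null-labelled library lay below every control library, and the library with the highest null-labelled value, library 1, was still clear of the lowest control. The means (SD, n = 3) were 159 ± 6.42 and 135 ± 4.39 CPM, giving a log2 fold change of -0.23 ± 0.04 (SE; 95% interval -0.32 to -0.14) with an adjusted p of 0.0140. Among all genes tested, 20.8% had a change of at least this size. The call ended without null-labelled library 2 (adjusted p = 0.0710), without null-labelled library 3 (0.0578) and without null-labelled libraries 1 and 3 (0.203).

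Tek (ENSMUSG00000006386, chr4:94739289-94874976, plus strand, protein-coding) encodes TIE2, the receptor for the angiopoietins. Tek stood at 111, 109.8 and 116 CPM in the control libraries and at 101, 97.4 and 94.7 CPM in the null-labelled libraries. The groups again did not overlap, with library 1 the highest of the null-labelled values here too. The means of 112 ± 3.14 and 97.8 ± 3.30 CPM gave a log2 fold change of -0.20 ± 0.04 (95% interval -0.29 to -0.11), adjusted p = 0.0203, and 24.2% of genes tested differed by at least as much. This call also ended without null-labelled library 2 (adjusted p = 0.0837), without library 3 (0.0824) and without libraries 1 and 3 (0.307).

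Tie1 and Tek differed from each other in level, and their ratio overlapped between the groups. Per kilobase of exon, Tie1 had 32.3 ± 1.31 CPM and Tek 23.9 ± 0.667 CPM in controls, and 27.5 ± 0.893 and 20.8 ± 0.700 CPM in null-labelled libraries. The count ratio of Tie1 to Tek was 1.48, 1.45 and 1.31 in control libraries and 1.38, 1.35 and 1.43 in null-labelled libraries. These ratios overlapped, and their mean log2 difference of -0.03 had an exact two-sided permutation p of 0.7 (0.747 adjusted over the 16 ratios computed here; the smallest p that 3 libraries against 3 can give is 0.1). It came to 0.00 without control library 1.

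Since both receptor genes fell, the DNA in front of their starts was compared for the letters that several endothelial transcription factors recognise. RefSeq promoter windows of build GRCm38.p6 were available for 4 of the 7 genes (Angpt4, Svep1, Tek and Tie1), and the 250 bases before the RefSeq start were searched on both strands for 3 short motifs. The ETS core was spelled GGAAG. The core of the GATA factors was spelled AGATAA. The forkhead core was spelled GTAAACA. The whole stretch is shown for Tek (chr4:94739039-94739288, plus strand); for Tie1 only the bases before its first annotated exon are shown (chr4:118490062-118490099, minus strand). Capitals mark the ETS core, either as spelled above or as its reverse complement.
Tek: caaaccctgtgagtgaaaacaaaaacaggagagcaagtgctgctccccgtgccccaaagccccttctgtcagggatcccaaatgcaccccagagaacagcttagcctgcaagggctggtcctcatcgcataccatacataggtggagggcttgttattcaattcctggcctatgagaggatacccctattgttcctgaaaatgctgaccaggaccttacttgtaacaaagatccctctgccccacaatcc
Tie1: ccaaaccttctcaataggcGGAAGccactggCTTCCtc

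The 2 receptor windows differed in matches to the ETS core as spelled here. The whole Tie1 window of 250 bases held 6 matches to the ETS core, of which the first 2, at positions -231 and -219 from the start, are the ones printed. The Tek window held 0 matches, the Svep1 window 3 and the Angpt4 window 4, and 64.1% of all 32851 windows of that length held at least 1. No window of the 4 held the GATA or the forkhead core, which 9.99% and 3.17% of all windows held. GC content was 60.4% for Tie1 and 51.2% for Tek, with a median of 52.4% over all windows. The Svep1 window and all but 38 bases of the Tie1 window lie inside the gene as GENCODE annotates it, since the RefSeq starts used here lie downstream of the GENCODE starts. These are matches of letters, not binding sites. Shorter or looser spellings of the ETS core were not searched, so 0 matches do not mean that the Tek window lacks ETS sites.

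Ptprb (ENSMUSG00000020154, chr10:116275523-116389535, plus strand, protein-coding) encodes VE-PTP, the endothelial receptor-type phosphatase that acts on TIE2. It measured 146, 137 and 154 CPM in the control libraries against 115, 96.3 and 106 CPM in the null-labelled libraries. No null-labelled value reached the control range, and null-labelled library 2 was the lowest. The means were 146 ± 8.55 and 106 ± 9.24 CPM, a log2 fold change of -0.46 ± 0.07 (95% interval -0.62 to -0.31) with an adjusted p of 0.0123, and 7.99% of genes tested differed by at least this size. Without null-labelled library 3 the adjusted p was 0.0546 at a log2 fold change of -0.46.

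Ptprb was also compared with the receptor it acts on. The ratio of Ptprb to Tek counts was 1.31, 1.25 and 1.33 in control libraries and 1.133, 0.989 and 1.12 in null-labelled libraries. All 3 null-labelled ratios lay below all 3 control ratios, with the lowest in null-labelled library 2. The mean ratio was 1.20-fold lower (log2 difference -0.27, exact two-sided permutation p = 0.1, the smallest possible, 0.229 adjusted over 16 ratios), so the difference could not pass a threshold of 0.05 at this sample size. Of the other phosphatases of the PTPRB group (Ptprj, Ptpro, Ptprq and Ptprh), 3 were tested and none was called by edgeR, DESeq2 or limma-voom; at an unadjusted p under 0.05 there was 1, Ptprq, at 0.348 ± 0.213 CPM in control libraries and 0.895 ± 0.147 CPM in null-labelled libraries (adjusted p = 0.0678).

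In bulk tissue, fewer endothelial cells and less of these RNAs per endothelial cell cannot be told apart, so the axis genes were also set against 20 pan-endothelial genes. Of those 20 genes 18 had a log2 fold change below 0, with 7 called lower, 1 called higher and a median of -0.22; over all genes tested the median was 0.00 and 5.41% were called. The summed level was 2531 to 2811 CPM in control libraries and 2304 to 2494 CPM in null-labelled libraries. Egfl7, a secreted endothelial factor, fell with the smallest p of the list (log2 fold change -0.37 ± 0.04, adjusted p = 0.000964), and Mmrn2, an endothelial matrix glycoprotein, rose (0.31 ± 0.05, adjusted p = 0.0144). Pecam1, the endothelial adhesion molecule CD31, fell from 260 ± 12.3 to 223 ± 14.55 CPM (log2 fold change -0.22 ± 0.05, adjusted p = 0.0487), a call just inside the threshold, whereas Cdh5, encoding VE-cadherin, was at 403 ± 31.0 and 370.1 ± 20.3 CPM (-0.12 ± 0.06, adjusted p = 0.298). The Pecam1 call ended in 12 of 16 alternatives, with adjusted p values of 0.0555 and 0.058 under other scalings, 0.0641 by limma-voom, and 0.119, 0.0514, 0.0933, 0.177 and 0.170 without control libraries 1, 2 and 3 and null-labelled libraries 2 and 3 in turn. The 8 calls became 4 without control library 1 or 2, 2 without null-labelled library 2 or 3, and 0 without null-labelled libraries 1 and 3.

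Relative to the summed counts of those 20 genes, Tie1 and Tek overlapped between the groups and Ptprb did not. Tie1 equalled 5.88%, 6.30% and 5.74% of the sum in control libraries and 5.60%, 5.60% and 5.88% in null-labelled libraries (log2 difference -0.07, exact permutation p = 0.3, adjusted 0.436). Tek equalled 3.97%, 4.34% and 4.36% against 4.06%, 4.16% and 4.11% (-0.04, exact permutation p = 0.4, adjusted 0.533). Ptprb equalled 5.21%, 5.40% and 5.79% in control libraries and 4.60%, 4.12% and 4.59% in null-labelled libraries. All 3 null-labelled shares of Ptprb were below the lowest control share, 1.23-fold lower on average (log2 difference -0.30, exact permutation p = 0.1, adjusted 0.229). The share of all genes tested that separate on this ratio was not computed. Within the list of 20, log2 fold changes ran from -0.53 (Cldn5) to 0.31 (Mmrn2). Ptprb, at -0.46, lay inside that range, so a fall of this size was not particular to it.

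**Figure D2:**
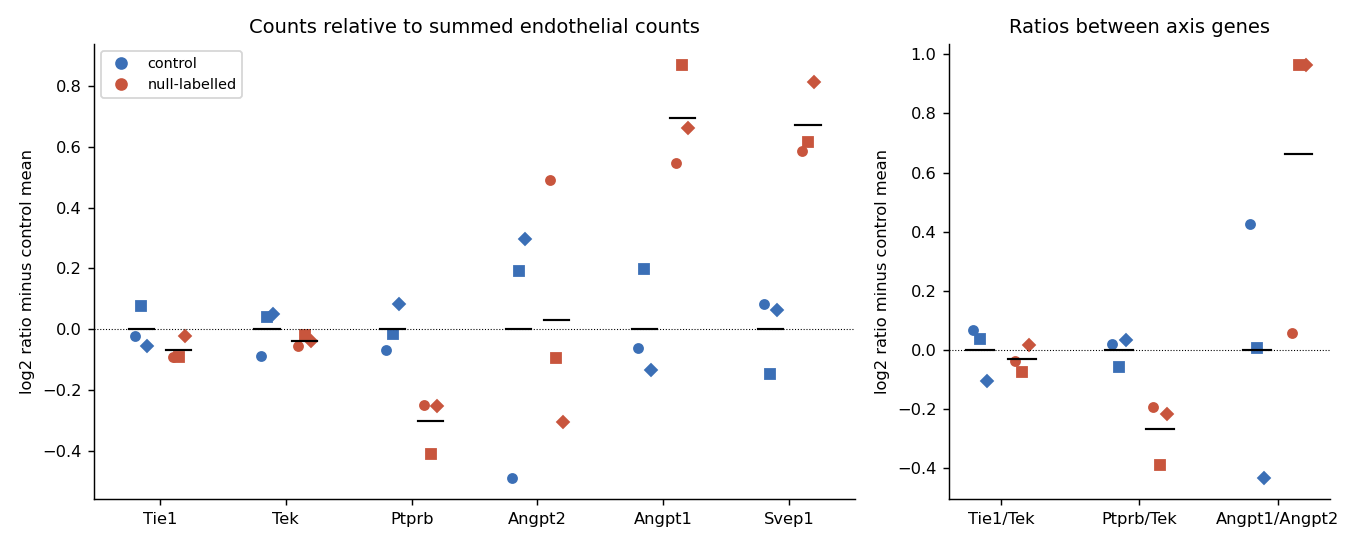
Left, log2 of each gene's counts over the summed counts of 20 pan-endothelial genes; right, log2 count ratios between axis genes; both are shown minus the control mean, 1 point per library, with a line at the group mean. Tie1 and Tek sit near 0 in both groups (differences of -0.07 and -0.04), Ptprb lies lower in all 3 null-labelled libraries (-0.30), and Angpt1 and Svep1 lie higher (0.69 and 0.67).

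Angpt1 (ENSMUSG00000022309, chr15:42424723-42676977, minus strand, protein-coding) encodes the activating ligand of TIE2. Its level was 23.8, 25.7 and 21.4 CPM in the control libraries and 32.3, 37.9 and 32.3 CPM in the null-labelled libraries. The groups were well apart, and null-labelled library 2 was the highest. The means were 23.7 ± 2.16 and 34.1 ± 3.21 CPM, a log2 fold change of 0.53 ± 0.08 (95% interval 0.34 to 0.72) with an adjusted p of 0.0116, and 6.15% of genes tested differed by at least as much. Angpt1 stayed called with any single library left out (log2 fold change 0.45 to 0.59), and had an adjusted p of 0.0747 without null-labelled libraries 1 and 3. Of its exonic length, 14.2% (737 bp) overlaps the antisense gene Gm17473, and reads of the 2 strands cannot be told apart because the strand setting of the counting is not given.

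Angpt1 was further set against the cell types that could supply it. Relative to the pan-endothelial sum it equalled 0.848%, 1.02% and 0.807% in control libraries and 1.29%, 1.62% and 1.40% in null-labelled libraries, without overlap (log2 difference 0.69, exact permutation p = 0.1, adjusted 0.229). The pericyte and mural markers had 1 call among 12, where 5.41% of all genes were called (Cspg4, the NG2 proteoglycan, log2 fold change -0.21 ± 0.04, adjusted p = 0.0178), a median log2 fold change of -0.05 and a summed level of 1780 to 2317 CPM in control libraries and 1889 to 1994 CPM in null-labelled libraries. The count was 2 without control library 1 and 0 without any 1 null-labelled library. Of the 12 markers 6 had an unadjusted p under 0.05, against 20.5% of all genes tested, with Abcc9 above 0 and the others below. Acta2 made up 36.0% of the summed level, so the sum leans on that gene and a flat sum does not show that mural content was the same. Against that sum Angpt1 was higher without overlap (log2 difference 0.59), as it was against the sum of 12 cardiomyocyte genes (0.53), both with an exact permutation p of 0.1.

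Fibroblast markers were above 0, as Angpt1 was. Of all genes tested 2.43% rose. All 10 fibroblast markers had a log2 fold change above 0 (median 0.25), 3 rose, among them Pdgfra, the fibroblast PDGF receptor (0.33 ± 0.05, adjusted p = 0.0109), and Tcf21, a transcription factor of cardiac fibroblasts (0.22 ± 0.04, adjusted p = 0.0207), and the summed level was 7105 to 8400 CPM in control libraries and 8802 to 9817 CPM in null-labelled libraries. Relative to the fibroblast sum, Angpt1 equalled 0.330%, 0.362% and 0.255% in control libraries and 0.329%, 0.425% and 0.367% in null-labelled libraries, which overlapped (log2 difference 0.25, exact permutation p = 0.3, adjusted 0.436). The part of fibroblast content in the difference of Angpt1 was not tested. The 3 fibroblast calls became 5 by DESeq2, 1 without control library 2, null-labelled library 1 or null-labelled library 3, 6 without control library 3, and 0 without null-labelled library 2 or without null-labelled libraries 1 and 3.

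Angpt2 (ENSMUSG00000031465, chr8:18690263-18741562, minus strand, protein-coding) encodes the endothelial, context-dependent ligand. It stood at 5.66, 8.17 and 9.23 CPM in the control libraries and 9.90, 6.19 and 5.28 CPM in the null-labelled libraries, from 218 to 398 counts each. The highest value was in null-labelled library 1 and the lowest in null-labelled library 3, and the groups overlapped throughout. The means of 7.68 ± 1.83 and 7.12 ± 2.45 CPM gave a log2 fold change of -0.10 ± 0.29 with an adjusted p of 0.889. Its 95% interval, -0.80 to 0.60, contains the sizes seen for Angpt1 and Ptprb in either direction, so these data do not show that Angpt2 was the same in both groups. The sign changed without control library 3 (0.05) or null-labelled library 3 (0.07).

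The spread of Angpt2 between libraries of a group, a coefficient of variation of 23.8% in control libraries and 34.4% in null-labelled libraries, was wider than that of Tek (2.79% and 3.37%), Tie1 (4.04% and 3.24%) or Angpt1 (9.11% and 9.42%). The count ratio of Angpt1 to Angpt2 was accordingly uneven, at 4.21, 3.15 and 2.32 in control libraries and 3.26, 6.12 and 6.12 in null-labelled libraries. Null-labelled library 1 fell within the control range and libraries 2 and 3 lay above it. The log2 difference was 0.66, with an exact two-sided permutation p of 0.2 (0.4 adjusted over 16 ratios). Against the pan-endothelial sum Angpt2 equalled 0.201%, 0.323% and 0.347% in control libraries and 0.397%, 0.265% and 0.229% in null-labelled libraries, a log2 difference of 0.03 (exact permutation p = 1.0) that turned to -0.21 without control library 1 and -0.20 without null-labelled library 1.

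Angpt4 (ENSMUSG00000027460, chr2:151911210-151945337, plus strand, protein-coding) encodes the third angiopoietin ligand of TIE2. It had 7, 5 and 1 counts in the control libraries and 3, 1 and 4 counts in the null-labelled libraries. These values lie at or near 3 counts, the level below which a gene could not be measured, and the groups overlapped. A difference was not detectable at this depth and the gene did not pass the filter, so it was not tested. Among the 7 angiopoietin-like genes, relatives that do not bind Tie receptors, 6 were tested and edgeR called none (1 at an unadjusted p under 0.05; DESeq2 called 1 and limma-voom 0); the lowest p was that of Angptl2, at 174 ± 10.4 CPM in control libraries and 194 ± 2.40 CPM in null-labelled libraries (adjusted p = 0.0804).

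Svep1 (ENSMUSG00000028369, chr4:58042442-58206859, minus strand, protein-coding) encodes polydom, a large extracellular matrix protein. It measured 41.2, 31.6 and 38.4 CPM in the control libraries and 51.8, 49.6 and 56.1 CPM in the null-labelled libraries. Control library 2 was the lowest, and all null-labelled values exceeded all control values. The means were 37.1 ± 4.95 and 52.5 ± 3.30 CPM, a log2 fold change of 0.50 ± 0.10 (95% interval 0.27 to 0.73) with an adjusted p of 0.0307, and 6.86% of genes tested differed by at least this size. Of the 5 calls this one was lost most often, with adjusted p values of 0.0702 without control library 3, 0.0924, 0.0746 and 0.0964 without null-labelled libraries 1, 2 and 3 in turn, and 0.422 without null-labelled libraries 1 and 3. The long noncoding gene Gm26889 overlaps 13.9% of its exonic length (2244 bp) on the opposite strand, with the same limit on strand as for Angpt1.

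Across lists, the order of the log2 differences follows from the list sums and is the same for any gene. Svep1 was set against some of the lists used for Angpt1. It equalled 1.47%, 1.25% and 1.45% of the pan-endothelial sum in control libraries and 2.08%, 2.12% and 2.43% in null-labelled libraries, without overlap (log2 difference 0.67, exact permutation p = 0.1, adjusted 0.229). Against the pericyte and mural sum the log2 difference was 0.57, also without overlap. Relative to the fibroblast sum Svep1 equalled 0.571%, 0.445% and 0.458% in control libraries and 0.527%, 0.556% and 0.637% in null-labelled libraries, which overlapped (0.23, exact permutation p = 0.3, adjusted 0.436). Macrophage markers had a median log2 fold change of 0.52 and summed to 78.9 to 90.3 CPM in control libraries and 101.5 to 126 CPM in null-labelled libraries; against their sum the log2 differences of Svep1 and Angpt1 were 0.05 and 0.07 (exact permutation p = 0.6 each). The part of either cell type in the rise of Svep1 was not tested. The 5 macrophage calls became 2 by limma-voom, 1 without control library 1, 0 without control library 2, null-labelled library 1 or null-labelled library 2, and 0 without null-labelled libraries 1 and 3.

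**Figure D3:**
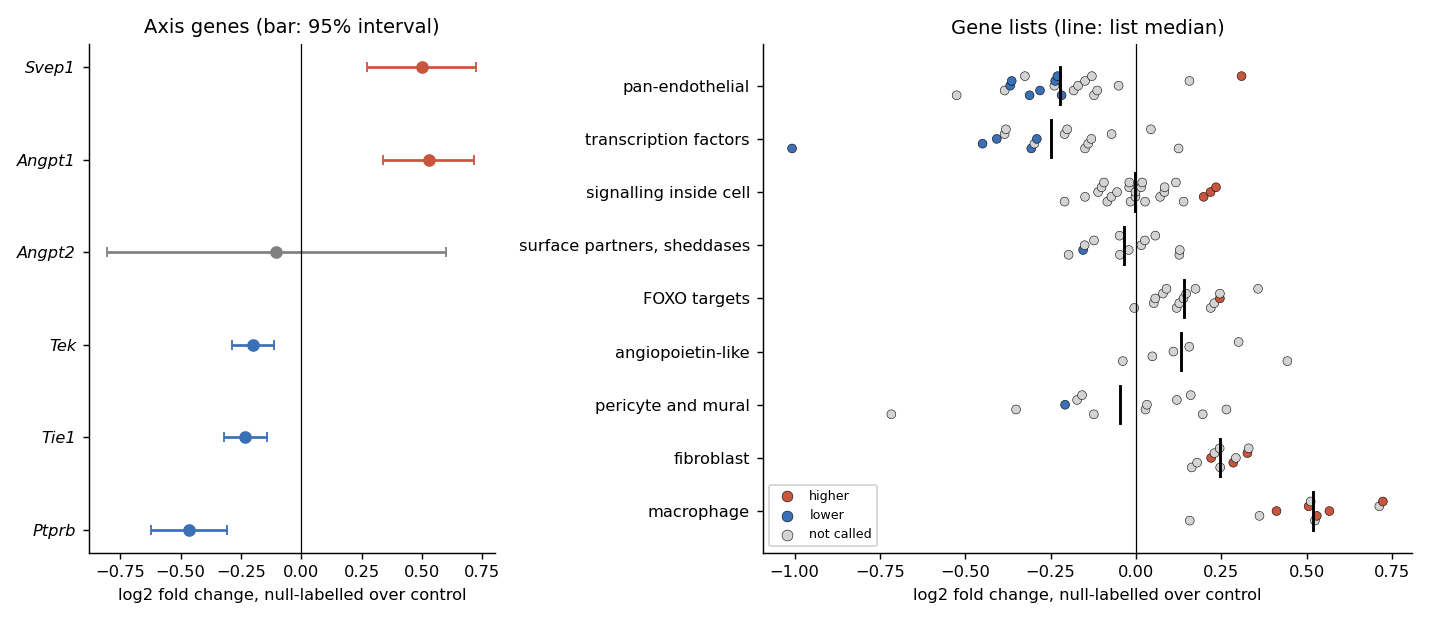
Left, log2 fold change of the 6 tested axis genes, null-labelled over control, with its 95% interval; right, log2 fold change of each tested gene in 9 lists (1 point per gene, line at the list median). Ptprb (-0.46) lies beyond the pan-endothelial median of -0.22 while Tie1 (-0.23) and Tek (-0.20) lie near it. Angpt1 (0.53) and Svep1 (0.50) lie beyond the fibroblast median of 0.25 and near the macrophage median of 0.52.

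Per kilobase of exon the order of the 7 genes was the same in both groups: Tie1, Tek, Ptprb, Angpt1, Svep1, Angpt2 and Angpt4. In controls the neighbours Svep1 and Angpt2, at 2.30 ± 0.307 and 2.08 ± 0.497 CPM per kilobase, overlapped and all other neighbours were apart. In null-labelled libraries Svep1 and Angpt2 no longer overlapped (3.26 ± 0.205 and 1.93 ± 0.663 CPM per kilobase). Ptprb and Angpt1, apart in controls at 10.9 ± 0.642 and 4.55 ± 0.414 CPM per kilobase, came to overlap at 7.92 ± 0.693 and 6.56 ± 0.618. This scale uses the whole annotated exonic length of each gene, so unused isoforms would shift it.

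Inside the cell, TIE2 signals through adaptors and PI3K to AKT, which holds FOXO transcription factors out of the nucleus. Of 25 genes of this signalling, 24 were tested, 3 rose and none fell, against 2.43% and 2.98% of all genes tested, and the median log2 fold change was 0.00, as over all genes tested. Foxo3, a forkhead factor inhibited by AKT, rose by 0.23 ± 0.04 on the log2 scale (94.2 ± 3.20 to 111 ± 4.17 CPM, adjusted p = 0.0148). Pik3r1, the regulatory subunit of PI3K, rose by 0.22 ± 0.04 (adjusted p = 0.0223), and the kinase Akt2 by 0.20 ± 0.04 (adjusted p = 0.0230). Foxo1, the forkhead factor best known downstream of TIE2, and Nos3, the endothelial nitric oxide synthase, were not called (0.03 ± 0.06, adjusted p = 0.847, and -0.15 ± 0.05, adjusted p = 0.0988; both named after their values were seen). The 3 calls became 0 without null-labelled library 1 or 3 or both, and 1 without control library 2 or null-labelled library 2.

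At the cell surface, 12 partners, sheddases and matrix receptors of the axis were tested, and 1 was called, near the 5.41% of all genes. Itga5, the fibronectin receptor subunit that can associate with TIE2, fell from 308 ± 7.96 to 277 ± 2.75 CPM (log2 fold change -0.15 ± 0.04, adjusted p = 0.0444). That call ended under upper-quartile scaling and without any 1 of the libraries control 1, control 2 or null-labelled 1 to 3, and DESeq2 called 2 genes of the list. Pear1, a receptor reported to bind SVEP1 and named after its values were seen, stood at 45.3 ± 2.67 CPM in control and 40.8 ± 1.52 CPM in null-labelled libraries (log2 fold change -0.15 ± 0.05, adjusted p = 0.152). The median of the 12 genes was -0.03.

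FOXO target genes were mostly above 0 with few calls. Of 15 tested, 14 had a log2 fold change above 0 with a median of 0.14, 6 had an unadjusted p under 0.05, and 1 was called. Over all genes tested 20.5% had such a p and 5.41% were called, so the share called was near that of all genes. Bcl2l11, which encodes the pro-apoptotic protein BIM, rose from 61.0 ± 2.18 to 72.4 ± 0.927 CPM (log2 fold change 0.25 ± 0.04, adjusted p = 0.0132). The list is not specific to endothelium, and in whole ventricle its levels come from all cell types. The count was 4 by DESeq2 and 2 by limma-voom, 2 without control library 3, and 0 without null-labelled library 2 or without null-labelled libraries 1 and 3.

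A further list held transcription factors that act on Tie or angiopoietin genes. Of 16 tested, 5 fell and none rose, against 2.98% and 2.43% of all genes tested, 14 had a log2 fold change below 0, and the median was -0.25. Sox17, an arterial endothelial factor, fell from 16.7 ± 2.45 to 8.30 ± 0.886 CPM (log2 fold change -1.01 ± 0.12, adjusted p = 0.00369). Elk3, an ETS family repressor, fell by 0.29 ± 0.04 on the log2 scale (adjusted p = 0.00448), and Sox7, a relative of Sox17, by 0.41 ± 0.06 (adjusted p = 0.00732). Klf2, the shear-responsive endothelial factor, fell by 0.31 ± 0.05 (adjusted p = 0.0155). The fifth was Ets1, an ETS activator, named after its values were seen, at 215 ± 10.3 CPM in control libraries and 157 ± 17.5 CPM in null-labelled libraries (log2 fold change -0.45 ± 0.08, adjusted p = 0.0254). Most of these factors are themselves endothelial, and the pan-endothelial list moved with them (median -0.22). Erg and Fli1 are in both lists, so part of that likeness is built in. The count became 3 without null-labelled library 3 and 1 without null-labelled libraries 1 and 3.

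The genes whose profile over the 6 libraries was most like that of each axis gene were taken from 9801 genes averaging 10 CPM or more, by the root mean square (RMS) difference in log2 CPM about each gene's own mean. For Ptprb they were Thbd, the endothelial anticoagulant receptor thrombomodulin (RMS difference 0.0335), S100a16 (0.0379) and Nova2 (0.0385), all called lower. For Tie1 they were Map3k11 (0.0132), Dtl (0.0182) and Lyn (0.0196), and for Tek they were Rin3 (0.0208), Rnf144a (0.0243) and Tulp3 (0.0253). All of these but Lyn and Rnf144a were called lower. Tie1 and Tek themselves differed by 0.0611, and each had closer genes than the other. Angpt1 lay nearest to Abcg1, a cholesterol exporter (0.0617), Trabd2b (0.0811) and Sesn2 (0.0920), Svep1 to Slc40a1, the iron exporter ferroportin (0.0398), Smoc2, a matrix protein (0.0708), and Abca6 (0.0769), all 6 called higher. Angpt1 and Svep1 differed from each other by 0.212. Angpt2 had its nearest genes at 0.0974 (Galnt16), 0.109 (Ttf2) and 0.135 (Mgp, matrix Gla protein), none of them called. These profiles include the group difference, so calls shared with an axis gene follow from how the genes were picked.

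The nearest tested genes on either side of Angpt1, Angpt2, Angpt4, Tek, Ptprb and Svep1 were not called. Genes that overlap an axis gene, such as Mcph1 on the strand opposite to Angpt2, were not taken as neighbours. The nearest on each side were Abra and Rspo2 for Angpt1, Myom2 and Agpat5 for Angpt2, Psmf1 and Fam110a for Angpt4, Ift74 and Eqtn for Tek, Ptprr and Kcnmb4 for Ptprb, and Txn1 and Lpar1 for Svep1. The lowest adjusted p among these genes was 0.0876 (Myom2, 3557 kb from Angpt2, log2 fold change 0.38 ± 0.10). Ptprr, another receptor-type phosphatase, ends 591 bp from Ptprb and stood at 0.583 ± 0.136 and 0.564 ± 0.107 CPM (log2 fold change -0.03 ± 0.29, adjusted p = 0.972). Svep1, Tek and Tie1 all lie on chromosome 4, at 86.8, 50.1 and 26.5 Mb from a stretch of 7 Mb nearer the chromosome end in which 22 of 66 tested genes (33.3%) were called; within 1 Mb of Tie1 and of Tek, 0 of 32 and 0 of 7 tested genes were called, and 1 of 12 near Svep1.

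**Figure D4:**
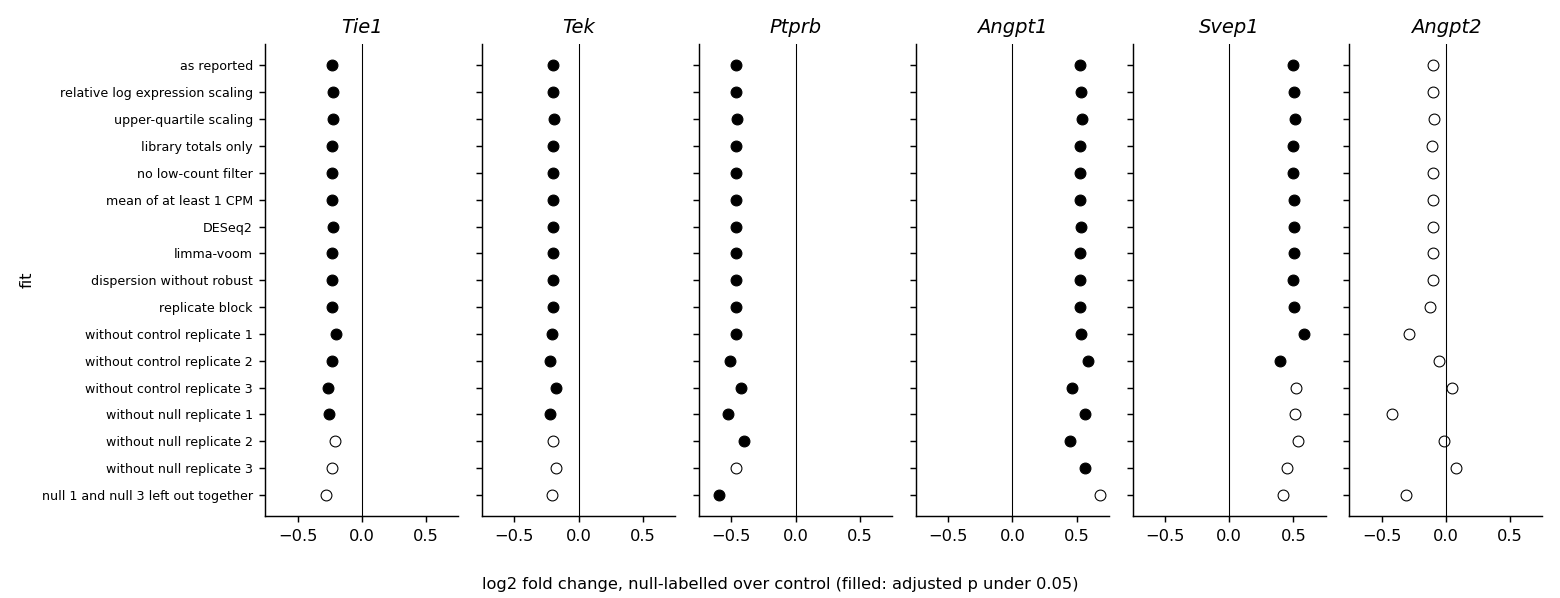
Log2 fold change (null-labelled over control) of the 6 tested axis genes under each fit, including other scalings, filters and tools, the replicate block and each library left out; filled points have an adjusted p under 0.05 in that fit. Tie1, Tek, Ptprb, Angpt1 and Svep1 keep their sign in every fit shown and lose calls only where libraries are left out, and Angpt2 is never filled.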

How the data were processed

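The authors deposited raw counts of reads, whole numbers, in 1 table per library with 25006 Ensembl identifiers, of which 24991 matched GENCODE M21 (GRCm38) for symbols and exonic lengths. The tools listed, per the submitters' processing notes, are STAR, HTSeq 0.6.1p1, cutadapt 1.13 and DESeq2, on build mm10; annotation release and strand setting: not given in the sources used here. Counts of all genes were filtered (filterByExpr), TMM-scaled and tested with the robust quasi-likelihood F test of edgeR 4.0.16 in R 4.3.3, group as the only term, two-sided, with Benjamini-Hochberg adjustment over 14815 genes and a threshold of 0.05. Levels are TMM-scaled CPM, mean ± SD, n = 3. Standard errors came from the fold change and its F statistic. The fit was tested on simulated data with known changes. It called 11 of 50 genes changed 1.2-fold (22%), 43 of 50 changed 1.5-fold (86%), 47 of 50 changed 2-fold (94%) and 49 of 50 changed 3-fold (98%). Among genes left unchanged it made 19 false calls. That is a larger share of its calls than the threshold of 0.05 aims at, so adjusted p values near the threshold may be too small. The changes of Tie1 (1.17-fold) and Tek (1.15-fold) are smaller than the smallest one simulated. DESeq2 1.42.0 and limma 3.58.1 (voom), other scalings and filters and left-out libraries were alternatives; ratios to fibroblast, mural, cardiomyocyte and macrophage sums were added after seeing the data. Ratios were compared by exact two-sided permutation. Members and lists were chosen with earlier results of these data known. Named genes were the 7 members, Prox1, Esr1, Pecam1, Cdh5, up to 4 called genes of smallest p per pathway list (or the 1 of smallest p), up to 2 per marker list, the 3 genes of nearest profile and the nearest tested neighbours (those of Tie1 are not reported here); others are marked as chosen later, except where a count of called genes is spelled out. At 35195544 to 44330594 counts per library, the floor of 3 counts covers counting error only, since these reads carry no molecular identifiers and duplicates are not separate molecules.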

Additional observations from a re-analysis of the deposited data

How the results depend on the processing

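The number of genes called changed, 801, was 1430 at an adjusted p under 0.1, 258 to 942 with 1 library left out (402 without control library 2, 385, 258 and 277 without null-labelled libraries 1, 2 and 3) and 52 without null-labelled libraries 1 and 3, where the lone null-labelled library is assumed to vary like the controls. Members called numbered 1 to 5 with 1 library left out and 1 without libraries 1 and 3. With 1 library left out, log2 fold changes ranged from -0.26 to -0.20 for Tie1, -0.23 to -0.18 for Tek, -0.53 to -0.40 for Ptprb, 0.45 to 0.59 for Angpt1, 0.40 to 0.58 for Svep1 and -0.42 to 0.075 for Angpt2, whose sign turned (0.05 without control library 3, 0.075 without null-labelled library 3). Without null-labelled libraries 1 and 3 they were -0.28 for Tie1, -0.21 for Tek, 0.68 for Angpt1 and 0.42 for Svep1, all 4 no longer called; fewer samples were fitted. In that setting the log2 difference was -0.39 for Ptprb to Tek, and relative to the pan-endothelial sum 0.87 for Angpt1, -0.41 for Ptprb and -0.095 for Angpt2. Ratio differences with 1 library left out ranged from -0.083 to 0.0035 for Tie1 to Tek (0.0035 without control library 1), -0.21 to 0.20 for Angpt2 to the pan-endothelial sum (-0.21 without control library 1, -0.20 without null-labelled library 1), -0.081 to 0.17 for Svep1 and -0.059 to 0.19 for Angpt1 to the macrophage sum; Svep1 to that sum was -0.036 without control library 2, -0.081 without null-labelled library 3 and -0.046 without libraries 1 and 3, and Angpt1 was -0.059 without control library 3. The causes were not tested. Shared replicate numbers did not pair the samples: same-numbered deviations correlated at -0.048, -0.095 and -0.157. With the replicate number as a block, 570 genes (3.85%) were called and the log2 fold changes of Tie1, Tek, Ptprb, Angpt1 and Svep1 were -0.23, -0.20, -0.47, 0.53 and 0.51; no call of a member changed. Under the block the Prox1 and Pecam1 calls ended (adjusted p = 0.0517 and 0.0584), and calls numbered 2 for macrophage (5 as reported), 0 for cardiomyocyte (1), 2 for atrial (1), 1 for endocardial (0), 3 for epicardial (2) and 0 for surface partner genes (1). Angpt4 could not be measured at this depth.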
